A study of Solanum lycopersicum with 18 samples.

Results

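Tomato (Solanum lycopersicum) callus that carries dexamethasone-inducible Rosea1 and Delila was compared between 24 h and 3 h of induction. For each feature the fold against uninduced callus at 24 h was divided by the fold at 3 h, so that uninduced callus, read as the reference of both folds although the table does not name it, drops out of the ratio. A feature was left out if its fold was exactly 1 at either time or identical at both. This kept 4757 of the 5295 features of the table, of which 4755 were tomato gene models and the others were the transgenes Rosea and Delila. Of the 538 features left out, 415 had a fold of exactly 1 at a callus time and 123 had an identical fold other than 1 at both times. The callus groups were uninduced control callus, callus 3 h after dexamethasone (DEX) and callus 24 h after DEX, with 3 libraries in each. DEX was given at 10 mg/L, and the material was grown at ambient temperature with 16 h of light and 8 h of dark. Uninduced roots and roots at 3 h and 24 h of DEX made up the other groups, again with 3 libraries each, and are used below for comparison. All groups carry the inducible system, as far as the series' design text gives it. The labels do not name the variety, the promoters, the number of transgenic lines, or whether the libraries of a group came from separate cultures.

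DEX is a synthetic glucocorticoid, which in an inducible line switches on the introduced genes. Rosea1 is a MYB factor and Delila a basic helix-loop-helix (bHLH) factor from snapdragon. With a WD-repeat protein, factors of these kinds form the complex that turns on anthocyanin synthesis in many plants. Anthocyanins are made from phenylalanine through the phenylpropanoid and flavonoid routes, are decorated with sugar, acyl and methyl groups, and are stored in the vacuole. Callus is a mass of dividing, largely undifferentiated cells grown in culture.

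The values are fold changes per the authors' deposited table, which is limited to features that passed a false discovery rate of 0.05 and a 2-fold change in any of 4 comparisons. Values of single libraries were not analysed here. How deep the libraries were, how replicates varied and whether any ratio was significant are therefore unknown, and no statement below carries a test. Higher and lower mean a ratio of at least 2 in that direction between 24 h and 3 h, unless uninduced callus is named as the reference. Levels are not in the table, so the callus could not be checked against marker levels, and no ratio ranks one gene's expression against another's. Fewer cells of a type and less RNA per cell cannot be told apart in these bulk samples. Since no label names DEX-treated material that lacks the transgenes, DEX itself and the transgenes cannot be told apart. The labels also do not give the hour of sampling, so longer induction and time of day cannot be told apart.

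Between 3 h and 24 h, 729 of the 4757 features were higher, which is 15.3%, and 998 were lower, which is 21.0%. The other 3030 moved by less than 2-fold. The median log2 ratio was -0.24, with the lower quartile at -0.87 and the upper quartile at 0.54. With every log2 ratio centred on that median, 956 features were higher and 706 lower. The share of higher features among those called was 42.2% as deposited and 57.5% after centring. Which direction holds more features therefore depends on the scaling, whereas 77 features at least 10-fold higher and 64 at least 10-fold lower lay far outside that shift.

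Most of the higher features had been below uninduced callus at 3 h. Against uninduced callus, 30.0% of the 4757 features were at least 2-fold higher and 23.5% lower at 3 h, and 18.7% were higher and 21.4% lower at 24 h. Of the 729 features higher at 24 h than at 3 h, 359 were at least 2-fold lower than uninduced at 3 h and within 2-fold of it at 24 h. A further 127 were within 2-fold at 3 h and higher at 24 h, 60 crossed from lower to higher, and 58 were higher at both times. Of the 998 lower features, 382 went from higher than uninduced at 3 h to within 2-fold of it at 24 h. Another 286 went from within 2-fold to lower, 152 were still higher at 24 h, and 46 crossed from higher to lower. Return to within 2-fold of the uninduced level thus described 49.2% of the higher and 38.3% of the lower features. The 3 h fold enters both the ratio and these classes. A low 3 h fold therefore favours a higher call, and a high 3 h fold a lower call.

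**Figure D1:**
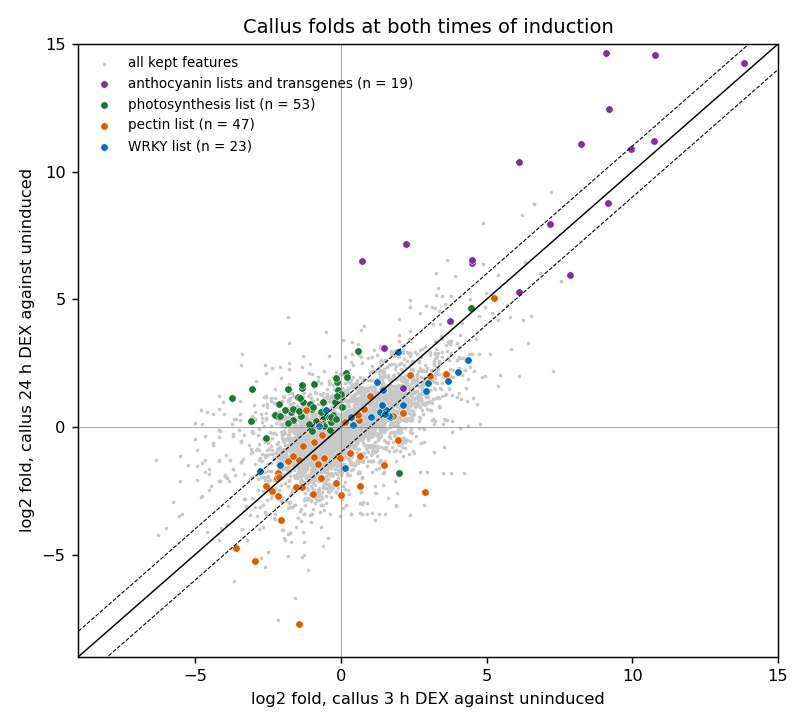
Each point is 1 kept feature, with its log2 fold against uninduced callus at 3 h on the x axis and at 24 h on the y axis. The solid line marks equal folds and the dashed lines a 2-fold difference between the times. The photosynthesis list lies mostly above the upper dashed line with x below 0, the anthocyanin genes lie at the upper right, and many pectin genes lie under the lower dashed line.

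Some folds recurred in many features. Among the features left out, reductions per the authors' deposited table gathered between 3.32-fold and 3.56-fold, where 68 of them lay, and between 5.75-fold and 5.98-fold, where 24 lay. Increases at 24 h gathered between 4.03-fold and 4.40-fold, and increases at 3 h between 5.22-fold and 5.55-fold, per the authors' deposited table. Smaller groups of 5 to 8 features lay at reductions of 8.12-fold to 8.33-fold, 10.7-fold to 10.8-fold and 13.1-fold to 13.4-fold. Such small groups also lay at increases of 7.306-fold to 7.475-fold at 24 h and 9.44-fold to 9.53-fold at 3 h. Of the kept features, 367 had a callus fold in one of these ranges or a ratio that fell in one against a reduced fold. They are named below as having a recurring fold. The reads behind these values are unknown, and since many features carry the same value, ratios that rest on it are uncertain, the highest ratios of the column included. Without them 568 features were higher and 873 lower.

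The transgene transcripts were lower at 24 h while several of the endogenous anthocyanin genes were much higher. The 24 h value was 0.264 times that at 3 h for Rosea and 0.566 times for Delila, so only Rosea passed the 2-fold limit. Of the 8 structural genes placed by identifier, 5 were higher and 0 lower, with a median log2 ratio of 1.83. All kept features had 15.3% higher and 21.0% lower. The decoration and transport list had 3 of 6 higher and 0 lower, and the list of endogenous regulators 2 of 3 higher and 0 lower. In all 3 lists every member but CHS2 was already at least 2-fold above uninduced callus at 3 h.

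By role, both chalcone synthases had large ratios, while the other early enzymes had smaller ones. The chalcone synthases, which make the first flavonoid, stood at 1.67-fold and 89.7-fold (CHS2, Solyc05g053550) and at 4.67-fold and 142-fold (CHS1, Solyc09g091510) at 3 h and 24 h per the authors' deposited table. Their ratios of 53.6 and 30.4 were among the 15 highest of all kept features. The next step, chalcone isomerase CHI1 (Solyc05g010320), had 2.82-fold and 8.61-fold per the authors' deposited table, a ratio of 3.06. CHIL (Solyc05g052240), named for a chalcone isomerase-like protein, had a ratio of 4.12. Flavanone 3-hydroxylase (F3H, Solyc02g083860) moved little, from 13.3-fold to 17.8-fold per the authors' deposited table. Between 3 h and 24 h the order of the folds changed: CHS1 and CHS2 lay below F3H at 3 h and above it at 24 h.

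The late enzymes included genes that moved by less than 2-fold and genes with large ratios. Dihydroflavonol 4-reductase (DFR, Solyc02g085020) and anthocyanidin synthase (ANS, Solyc08g080040), which act one after the other, had ratios of 1.33 and 1.69. F3'5'H (Solyc11g066580), a P450 that adds the hydroxyls of blue pigments, had a ratio of 45.9. Of the decorating enzymes, the 3-glucosyltransferase (3GT, Solyc10g083440) went from 574-fold to 437-fold per the authors' deposited table, a ratio of 0.761. The 5-glucosyltransferase (5GT, Solyc12g098590) and the O-methyltransferase (AOMT, Solyc09g082660), which act on pigments that 3GT has glycosylated, had ratios of 13.7 and 9.58. The acyltransferase AAC (Solyc12g088170) had 1.93, just under the 2-fold limit. Of the transport genes, the MATE transporter (Solyc03g025190) stood at 305-fold and 2176-fold per the authors' deposited table, a ratio of 7.14, while the glutathione S-transferase (GST, Solyc02g081340) had 1.36.

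Among the regulators, the endogenous bHLH gene AN1 (Solyc09g065100) had a ratio of 19.3 and the MYB repressor MYB-ATV (Solyc07g052490) of 3.77. The WD-repeat gene AN11 (Solyc03g097340) was 4.35-fold above uninduced at 3 h and 2.87-fold at 24 h per the authors' deposited table, a ratio of 0.659. The endogenous bHLH gene was thus higher at 24 h, over the interval in which the introduced bHLH gene Delila had a ratio of 0.566.

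**Figure D2:**
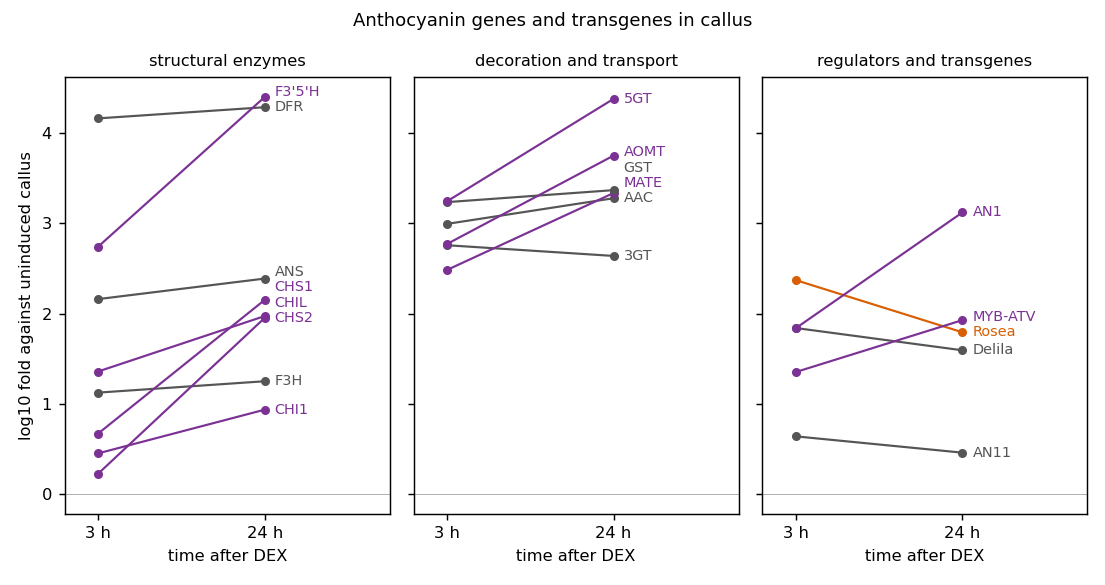
Log10 fold against uninduced callus (y axis) at 3 h and 24 h (x axis) for the anthocyanin genes and transgenes, as deposited by the authors, with purple lines for at least 2-fold higher, orange for at least 2-fold lower and grey for less than 2-fold. CHS1, CHS2, F3'5'H, 5GT, AOMT and AN1 have steep lines, DFR, GST and 3GT stay nearly level, and both transgenes slope down.

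Other genes with flavonoid descriptions were mostly flat, with 2 of 9 higher (22.2%) and 1 lower (11.1%), against 15.3% and 21.0% of all kept features. The exception with large folds was Solyc09g059170, described as an anthocyanidin 3-O-glucosyltransferase, which went from 149-fold to 582-fold per the authors' deposited table, a ratio of 3.91. A second gene of that description, Solyc04g079030, was 7.03-fold lower than uninduced at 3 h and 16.1-fold lower at 24 h per the authors' deposited table. Identical descriptions thus covered genes with opposite courses.

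In the shikimate and aromatic amino acid list, only part of which leads to phenylalanine, 2 of 10 genes were lower and 0 higher. That share of lower genes was close to the 21.0% of all kept features. All 10 had ratios below 1, against 57.1% of all kept features, and 7 of them had been higher than uninduced at 3 h against 4 at 24 h. Prephenate dehydratase Solyc06g074530, of phenylalanine synthesis, went from 5.34-fold to 2.38-fold per the authors' deposited table, a ratio of 0.446. A prephenate dehydrogenase (Solyc09g011870) had a ratio of 0.338, and a shikimate kinase (Solyc04g051860) of 0.565. Both genes that passed the limit, the dehydratase and Solyc09g011870, have a recurring fold, which leaves 0 in either direction without such folds. In phenylpropanoid entry, which leads from phenylalanine to coumaroyl-CoA, 2 of 19 genes were higher and 4 lower, and 6 were higher and 3 lower after centring. Against uninduced callus 12 genes of the list were higher at 3 h and 13 at 24 h, and 0 were lower at either time. Of the coumarate ligases 5 were higher at 3 h and 2 at 24 h.

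Within that list the enzymes differed. All 11 kept phenylalanine ammonia-lyases, which open the route, were at least 2-fold above uninduced callus at 24 h, after 7 of 11 at 3 h. Solyc00g282510 had a ratio of 2.52, whereas Solyc09g007890 went from 13.3-fold to 4.87-fold per the authors' deposited table, a ratio of 0.366. Of the 8 coumarate ligase genes 0 were higher and 3 lower, where 21.0% of all kept features were lower. The ligase-like Solyc06g035960 led them, from 8.40-fold to 2.03-fold per the authors' deposited table. Whether reads were shared among these ammonia-lyases is unknown, since no sequences were compared, so their single ratios are uncertain. Lignin and chlorogenic acid genes, which draw on the same precursors, had 7 of 47 members higher (14.9%) and 15 lower (31.9%). All kept features had 15.3% higher and 21.0% lower. Hydroxycinnamoyl transferase Solyc07g043670 (0.185, a recurring fold) and laccase Solyc03g063150 (0.210), an enzyme kind that couples lignin precursors, were among the lower ones, and the dirigent-like gene Solyc05g054780 was 16.8 times higher.

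Photosynthesis genes had the largest share of higher members among the lists with at least 10 kept members. Of the 53 kept members 40 were higher and 1 was lower, which is 75.5% higher against 15.3% of all kept features, and the median log2 ratio was 1.81. At 3 h 23 of them were lower than uninduced callus and 2 higher, and at 24 h 1 was lower and 17 higher. The list was set beside the data as a marker of green tissue, and its level in each library is not known. Its part in the other results was not tested.

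Both photosystems were included. All 12 kept photosystem I genes had ratios above 1, and 11 of them were higher, with a median log2 ratio of 2.24. Photosystem II and its oxygen-evolving proteins had 12 of 13 higher, with a median of 2.10. The PSI subunit III gene Solyc02g069450 went from 4.37-fold lower than uninduced to 1.87-fold higher per the authors' deposited table, a ratio of 8.16. For the photosystem II-associated Solyc06g060340 the authors' deposited table gave 13.4-fold lower and 2.21-fold higher, a ratio of 29.6. An oxygen-evolving enhancer protein 1 gene (Solyc02g090030) had a ratio of 5.16, and another gene of that description, Solyc02g065400, had 2.93.

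Antenna genes, whose proteins bind chlorophyll and harvest light, were more mixed. Of the 15 kept antenna genes 9 were higher and 1 lower. Solyc10g006230 went from 2.53-fold lower to 3.11-fold higher than uninduced per the authors' deposited table, a ratio of 7.88. The only lower member of the whole list was Solyc02g071010, which has a recurring fold of 3.49-fold lower at 24 h per the authors' deposited table and a ratio of 0.0725. Another member, Solyc03g005770, stood apart at 22.1-fold and 25.5-fold above uninduced callus per the authors' deposited table and moved little between the times. No sequences of antenna genes were compared, and how reads shared among similar genes were counted is unknown, so single ratios are uncertain.

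Carbon fixation and chlorophyll synthesis had the same direction. The small chain of ribulose bisphosphate carboxylase, the enzyme that fixes carbon dioxide, had a ratio of 7.14 for Solyc03g034220. A glyceraldehyde-3-phosphate dehydrogenase B gene (Solyc04g082630), of the Calvin cycle, had 6.06. Protochlorophyllide reductase Solyc12g013710, which needs light to make chlorophyll, went from 8.39-fold lower to 1.18-fold higher than uninduced per the authors' deposited table, a ratio of 9.88. Without recurring folds 33 of 45 members were higher and 0 lower.

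**Figure D3:**
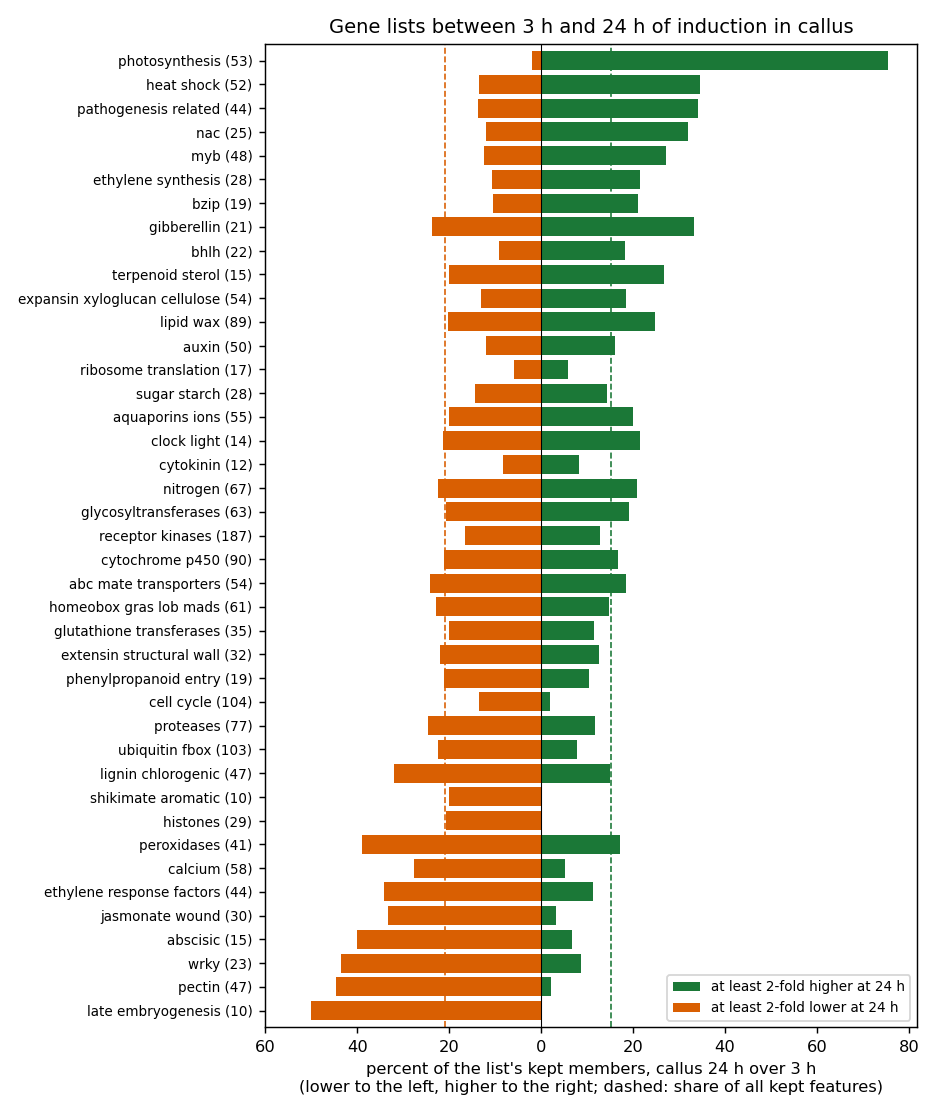
For each gene list with at least 10 kept members (number in parentheses), bars show the percent of members at least 2-fold higher at 24 h than at 3 h (green, to the right) and at least 2-fold lower (orange, to the left). The dashed lines mark 15.3% and 21.0%, the shares of all kept features, and the photosynthesis bar reaches 75.5%.

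WRKY factors, which act in defence and stress, had 10 of 23 members lower and 2 higher, or 43.5% lower against 21.0% of all kept features, but 0 in either direction at a 4-fold limit. At 3 h 16 of them were above uninduced callus, and at 24 h 8 were. WRKY 27 (Solyc03g007380) went from 20.4-fold to 6.11-fold per the authors' deposited table, a ratio of 0.299. The WRKY-30 genes Solyc08g008280 and Solyc08g082110 had ratios of 0.270 and 0.271, the former with a recurring fold at 24 h. In contrast, WRKY-c (Solyc02g088340) stood at 3.87-fold and 7.71-fold per the authors' deposited table, a ratio of 1.99.

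Ethylene response factors had 15 of 44 members lower and 5 higher, which is 34.1% lower against 21.0% of all kept features. Above uninduced callus stood 21 of them at 3 h and 10 at 24 h. Solyc01g108240 went from 3.08-fold higher to 6.89-fold lower per the authors' deposited table, a ratio of 0.0472. The AP2-like Solyc03g123430 had a ratio of 0.0541. Solyc10g050970 had the lowest ratio of the list, 0.0210, but its 24 h fold is a recurring one. The higher members included Solyc04g007000 with a ratio of 10.4, also with a recurring fold at 3 h.

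Of the 58 calcium signalling genes, which relay stress and touch, 16 were lower and 3 higher, or 27.6% lower against 21.0% of all kept features. Within them 8 of 16 genes of the calmodulin and calmodulin-like group were lower and 0 higher, with a median log2 ratio of -1.08. The calmodulin-like Solyc02g094000 had a ratio of 0.179 with a recurring fold. A sodium/calcium exchanger (Solyc03g006260) went from 2.26-fold higher to 6.04-fold lower per the authors' deposited table, a ratio of 0.0734. The exchanger Solyc07g006370 took the other course, with a ratio of 8.07.

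Of the 30 jasmonate and wound genes 10 (33.3%, against 21.0% of all kept features) were lower and 1 was higher. The higher one was a proteinase inhibitor II (Solyc03g020070) with a recurring fold. Jasmonate ZIM-domain protein 1 (Solyc12g009220), of a family of repressors that jasmonate itself induces, went from 3.46-fold to 1.24-fold per the authors' deposited table. A lipoxygenase (Solyc09g075870), of a family that includes the first enzyme of jasmonate synthesis, had a ratio of 0.330. The proteinase inhibitor Solyc11g021060 had 0.206.

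Of the 15 abscisic acid genes 6 were lower, where 21.0% of all kept features were, and 1 was higher. The lower ones included both synthesis and response genes. A 9-cis-epoxycarotenoid dioxygenase (Solyc08g016720), of the enzyme family that commits carotenoids to abscisic acid, went from 3.20-fold to 1.00-fold per the authors' deposited table. An abscisic stress ripening gene (Solyc04g071600) had a ratio of 0.454, and the receptor PYL6 (Solyc02g076770) of 0.455. The receptor PYL9 (Solyc08g082180) was the higher one, with a ratio of 3.50.

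Late embryogenesis abundant genes, which protect seeds and drying tissue and often respond to abscisic acid, had 5 of 10 members lower and 0 higher. Of all kept features 21.0% were lower. Solyc01g095140 went from 17.2-fold above uninduced at 3 h to 1.04-fold below it at 24 h per the authors' deposited table. The seed maturation gene Solyc10g078780 had a ratio of 0.0587, with a recurring fold at 24 h. Its neighbour by identifier, Solyc10g078770, stood at 41.6-fold at 3 h and at 62.3-fold at 24 h per the authors' deposited table.

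Ubiquitin ligase and F-box genes, which mark proteins for breakdown, had 23 of 103 members lower and 8 higher, where 21.0% of all features were lower. Genes described exactly as U-box domain-containing protein had 7 of 13 lower and 0 higher. Solyc05g015070 went from 9.55-fold to 2.23-fold per the authors' deposited table, a ratio of 0.233, and the U-box 24 gene Solyc11g068940 had 0.385. RING finger gene Solyc03g114190 had a ratio of 58.2, with a recurring fold at 3 h. Among 8 genes described as CHP-rich zinc finger protein-like, 6 were lower and 1 higher, with a median log2 ratio of -2.46. Solyc01g073800, Solyc01g073820, Solyc01g073830 and Solyc01g073840, which are close to each other by identifier, had ratios of 0.122, 0.139, 0.105 and 0.128. Solyc01g073830 led them with 11.7-fold at 3 h and 1.23-fold at 24 h per the authors' deposited table. These families were picked out after their values were seen.

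**Figure D4:**
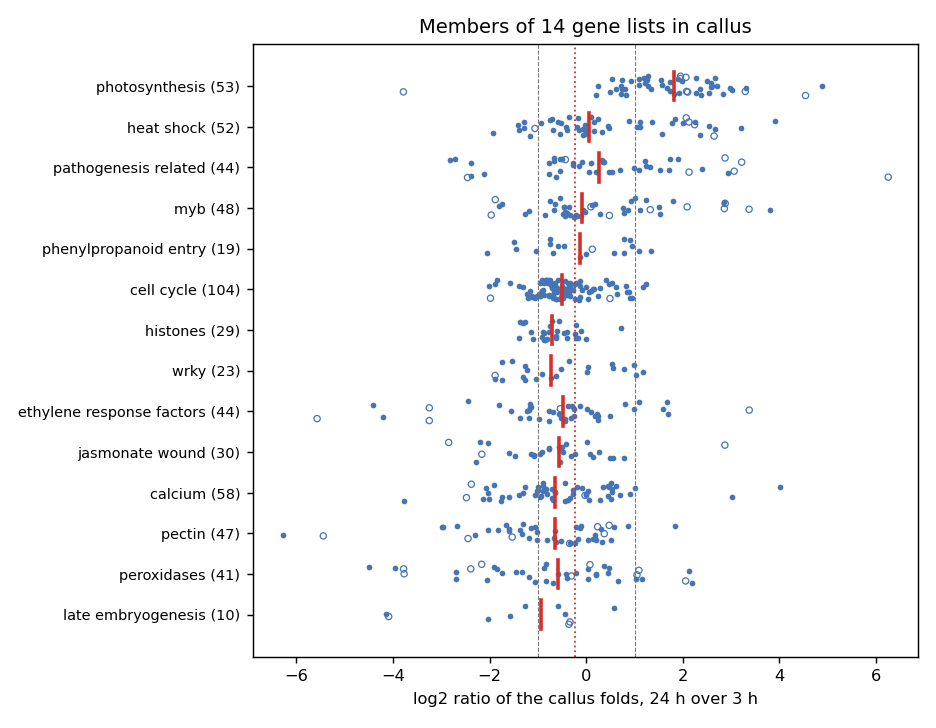
Log2 ratio of the callus folds, 24 h over 3 h (x axis), of each kept member of 14 gene lists (rows, with the number of members), where open points have a recurring fold and vertical position within a row has no meaning. Red bars mark list medians, the dotted line the median of all kept features (-0.24), and dashed lines a 2-fold difference. Photosynthesis has its median at 1.81, and the medians of histones (-0.70), WRKY factors (-0.74) and pectin genes (-0.65) lie left of the dotted line.

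Pathogenesis-related genes were divided. Of the 44 kept members 15 were higher and 6 lower, or 34.1% higher against 15.3% of all kept features. Beta-1,3-glucanase Solyc10g079860, which cuts a polymer of fungal walls, went from 1.30-fold to 10.0-fold per the authors' deposited table, a ratio of 7.70. A chitinase (Solyc01g097280) went from 2.54-fold to 8.52-fold per the authors' deposited table, a ratio of 3.35. The PR-1 genes Solyc00g174330 and Solyc00g174340 had ratios of 9.31 and 8.36, each with a recurring fold at 24 h. The chitinase Solyc07g009510 had the highest ratio of all kept features, 76.2, and also has a recurring fold at 24 h. In the opposite direction, the chitinase Solyc04g072000 went from 16.0-fold to 2.25-fold per the authors' deposited table. The PR-10-related gene Solyc07g005380 had a ratio of 0.192.

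In the heat shock list, which includes chaperones, 18 of 52 members were higher and 7 lower. This is 34.6% higher against 15.3% of all kept features. The small heat shock proteins, which keep damaged proteins soluble, accounted for 11 of the higher genes among 22 kept, with 2 lower. At 3 h 11 of these 22 were below uninduced callus and 4 above it, against 1 and 3 at 24 h. The class IV gene Solyc11g020330 had a ratio of 14.9. A class II gene (Solyc03g123540) had a ratio of 6.31 and a class I gene (Solyc06g076540) of 5.82. The heat stress transcription factors, which switch such genes on, had 1 of 9 higher and 3 lower, and 1 in each direction after centring. Heat shock transcription factor 1 (Solyc02g079180) went from 4.92-fold to 1.28-fold per the authors' deposited table, and Solyc10g079380 stayed near 79.1-fold and 88.2-fold per the authors' deposited table. Among the large chaperones 1 of 6 was higher and 0 lower.

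Pectin enzymes loosen or stiffen the wall by acting on its pectin. Of 47 kept members 21 were lower and 1 higher, or 44.7% lower against 21.0% of all kept features, with a median log2 ratio of -0.65, and 16 were lower and 2 higher after centring. Against uninduced callus 17 were lower at 3 h and 29 at 24 h. Polygalacturonases, which cut pectin, had 8 of 14 lower and 0 higher, pectate lyases 3 of 7 lower and 0 higher, and pectinesterases 9 of 25 lower and 1 higher. The pectate lyase Solyc05g014000 had the lowest ratio of all kept features, 0.0129, with 2.72-fold lower at 3 h and 211-fold lower at 24 h per the authors' deposited table. Polygalacturonase Solyc03g116580 went from 1.59-fold higher to 4.93-fold lower per the authors' deposited table. Pectinesterase Solyc03g083840 had a ratio of 0.127.

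The other wall groups were mixed, where 15.3% of all kept features were higher and 21.0% lower. Expansins, xyloglucan enzymes and cellulose synthases had 10 of 54 members higher and 7 lower, and 31 of them stood below uninduced callus at 3 h and 26 at 24 h. Opposite courses occurred among the cellulose synthases, where Solyc08g082670 and Solyc02g072240 had ratios of 11.5 and 0.105. Endoglucanase Solyc03g083820 had 0.0944. Extensins and structural wall proteins had 4 of 32 higher and 7 lower, which became a majority of higher members after centring. Class III peroxidases, which cross-link wall polymers, had 16 of 41 lower (39.0%) and 7 higher (17.1%). Peroxidase 1 gene Solyc10g076190 went from 3.78-fold higher to 6.01-fold lower per the authors' deposited table, a ratio of 0.0441, and peroxidase 2 (Solyc11g018800) had 0.0643.

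Histone genes, whose proteins package newly copied DNA, had 6 of 29 kept members lower and 0 higher, and this 20.7% lies close to the 21.0% of all kept features. Of the 29, 28 had ratios below 1, against 57.1% of all kept features, with a median log2 ratio of -0.70. At 3 h 2 of them were below uninduced callus and at 24 h 14 were. Histone H4 gene Solyc11g072860 went from 1.31-fold higher to 2.01-fold lower per the authors' deposited table, a ratio of 0.381, and histone H3 gene Solyc10g008910 had 0.389. Only the H4 gene Solyc11g072840 had a ratio above 1, at 1.64. Whether reads were shared among histone genes is likewise unknown, so single ratios are uncertain.

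The cell cycle list had 14 of 104 members lower and 2 higher, and 7 in each direction after centring. The majority among its called members thus rests on the scaling. Of the 104, 83 had ratios below 1, against 57.1% of all kept features. The list's median log2 ratio was -0.50, and -0.26 after centring. Its members below uninduced callus numbered 12 at 3 h and 43 at 24 h. Kinesins, the motors that move chromosomes and build the division plane, had 5 of 35 lower and 0 higher, with a highest ratio of 1.07. Kinesin Solyc01g091480 went from 5.56-fold to 1.39-fold per the authors' deposited table. Cyclins, which time the cycle, had 4 of 24 lower and 0 higher, which turned to 2 and 3 after centring, and the cyclin A-like Solyc12g088520 had a ratio of 0.277. Replication genes had 1 of 22 lower and 1 higher. With 13.5% of the list lower against 21.0% of all features, the list's count of lower genes was no larger than that of the table.

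Families of transcription factors linked to growth and differentiation were mixed. The shares of all kept features were 15.3% higher and 21.0% lower. Endogenous MYB factors outside the regulator list had 13 of 48 higher (27.1%) and 6 lower (12.5%), and 8 and 4 of 39 without recurring folds. MYB gene Solyc06g005310 went from 18.2-fold lower to 1.31-fold lower per the authors' deposited table, a ratio of 13.9. MYB gene Solyc10g055410 went from 29.1-fold to 83.2-fold per the authors' deposited table. NAC factors had 8 of 25 higher (32%) and 3 lower (12%), led by Solyc08g074300 with a ratio of 29.0. Without recurring folds 5 of 21 NAC factors were higher and 3 lower. Of the 25, 16 had ratios below 1, and their median log2 ratio of -0.24 was that of all kept features. The bHLH list had 4 of 22 higher (18.2%) and 2 lower (9.09%), with 8 members below uninduced callus at 3 h and 7 at 24 h. Basic leucine zipper factors had 4 of 19 higher (21.1%) and 2 lower (10.5%). The gene bZIP98 (Solyc02g072570) went from 14.2-fold higher to 1.14-fold lower per the authors' deposited table. The developmental list of homeobox, GRAS, LOB and MADS factors had 9 of 61 higher (14.8%) and 14 lower (23.0%), close to all kept features. It had more higher than lower members after centring. Genes described as GRAS family transcription factors had 4 of 12 lower and 0 higher, and Solyc06g035630 went from 10.6-fold to 2.90-fold per the authors' deposited table.

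Growth hormone lists held members on both sides, where 15.3% of all kept features were higher and 21.0% lower. Gibberellin genes had 7 of 21 higher (33.3%) and 5 lower (23.8%). Gibberellin 2-oxidases inactivate the hormone, and Solyc02g070430 moved from 80.7-fold lower to 2.48-fold lower per the authors' deposited table, a ratio of 32.6, whereas Solyc06g066820, a 3-beta-hydroxylase that activates it, kept 18.0-fold and 16.8-fold per the authors' deposited table. A receptor gene (GID1L2, Solyc01g108570) had a ratio of 6.29. Auxin genes had 8 of 50 higher (16%) and 6 lower (12%), with fewer higher than lower once recurring folds were left out. The SAUR-like Solyc02g062230 had a ratio of 10.1 and the auxin-induced Solyc07g048060 of 0.168. Cytokinin genes had 1 of 12 higher and 1 lower, 8.33% each. Both were cytokinin oxidases, which break the hormone down: Solyc04g016430 had a ratio of 2.97 and Solyc10g017990 of 0.471. Ethylene synthesis genes had 6 of 28 higher (21.4%) and 3 lower (10.7%). Genes described as oxidases of the last step of ethylene synthesis, or only as like them, were on both sides. The oxidase-like Solyc09g010000 was among the higher genes and the oxidase Solyc06g060070, with a ratio of 0.192, among the lower.

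Lipid and wax genes had 22 of 89 higher (24.7%) and 18 lower (20.2%), against 15.3% and 21.0% of all kept features. Without recurring folds they had 15 higher and 16 lower of 77. Wax synthesis genes were among the higher ones: CER1 genes, named for an enzyme of alkane formation, had 8.64 (Solyc00g278110) and 33.9 (Solyc01g088410, with a recurring fold at 3 h). Lipid transfer proteins, which carry lipids to the surface, had 8 of 19 higher and 4 lower, and 3 of 13 in each direction without recurring folds. Solyc10g075100 went from 2.43-fold lower to 6.93-fold higher per the authors' deposited table, a ratio of 16.9, whereas Solyc09g082270 went from 20.6-fold to 3.69-fold per the authors' deposited table.

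Transport and detoxification genes lay near the shares of all kept features, 15.3% higher and 21.0% lower. ABC and MATE transporters outside the anthocyanin list had 10 of 54 higher and 13 lower, and more higher than lower after centring. ABC transporter G member 32 (Solyc05g018510) went from 20.4-fold to 1.03-fold per the authors' deposited table, and member 22 (Solyc01g006720) had a ratio of 12.6. Cytochrome P450 genes had 15 of 90 higher and 19 lower, glycosyltransferases 12 of 63 and 13, and glutathione transferases 4 of 35 and 7. In all 3 the majority turned to higher after centring. The glutathione transferases nevertheless had 28 of 35 ratios below 1, with 22 members above uninduced callus at 3 h and 9 at 24 h. Aquaporins and ion transporters had 11 of 55 in each direction, and aquaporin Solyc10g083880, a water channel, had a ratio of 9.08. Nitrogen transport and assimilation had 14 of 67 higher and 15 lower, a majority that turned to higher after centring, and the peptide transporter Solyc05g005910 went from 27.3-fold lower to 1.10-fold higher per the authors' deposited table. Genes described as purine permease family proteins, carriers of bases and cytokinins, had 5 of 8 higher and 0 lower, a family picked out after its values were seen. Solyc02g071100 went from 15.9-fold lower to 1.41-fold higher per the authors' deposited table, a ratio of 22.5, and Solyc03g005820 had 11.5.

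Receptor kinases, the largest list, had 24 of 187 higher (12.8%) and 31 lower (16.6%), and more higher than lower after centring. All kept features had 15.3% higher and 21.0% lower. Receptor-like kinase Solyc02g068060 went from 18.0-fold lower to 2.31-fold higher per the authors' deposited table, a ratio of 41.5. Proteases had 9 of 77 higher (11.7%) and 19 lower (24.7%), and 11 and 12 after centring. Sugar and starch genes had 4 of 28 (14.3%) in each direction, and ribosome and translation genes 1 of 17 (5.88%) in each. Terpenoid and sterol genes had 4 of 15 higher (26.7%) and 3 lower (20%). Carotenoid cleavage dioxygenase 8 (Solyc08g066650), of strigolactone synthesis, went from 7.31-fold higher to 8.42-fold lower per the authors' deposited table, a ratio of 0.0162.

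Clock and light genes were taken as a marker of time of day. They had 3 of 14 higher and 3 lower, 21.4% each, against 15.3% and 21.0% of all kept features. The 3 lower genes were tomato CONSTANS-like 1 (Solyc02g089540), 2 (Solyc02g089500) and 3 (Solyc02g089520), of a family of light-regulated zinc finger factors, with ratios of 0.299, 0.229 and 0.287. Their identifiers are close to each other. CONSTANS-LIKE 2 gene Solyc02g084420 went from 13.7-fold to 34.9-fold per the authors' deposited table. The gene described as late elongated hypocotyl and circadian clock associated (Solyc10g005080), a morning component of the clock, stood at 1.13-fold and 1.43-fold per the authors' deposited table, a ratio of 1.27. The part of time of day in the other results was not tested.

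The strongest early responses took different courses. The 3 h fold that picks these features also divides the ratio, so the choice itself favours lower ratios. Of all kept features 21.0% were lower and 15.3% higher. Of 143 features at least 10-fold above uninduced callus at 3 h, 81 were lower at 24 h than at 3 h. Of these, 14 were back within 2-fold of uninduced, and 20 of the 143 were higher still. Of those 20, 7 belonged to the anthocyanin lists. The others, named after their values were seen, included a cytochrome B5 (Solyc04g078140), an electron donor to some P450 enzymes, with 15.1-fold and 59.6-fold per the authors' deposited table. A long-chain fatty acid CoA ligase (Solyc01g079240) went from 99.6-fold to 422-fold per the authors' deposited table. A pinoresinol-lariciresinol reductase (Solyc06g066170), of lignan synthesis, went from 12.6-fold to 93.1-fold per the authors' deposited table, a ratio of 7.42. Cytochrome P450 gene Solyc04g007940 had a ratio of 4.37. Among the 14 that returned to the uninduced level were a cortical cell-delineating protein (Solyc03g091000), from 27.2-fold to 1.10-fold, and a GMP synthase (Solyc07g006090), from 25.8-fold to 1.87-fold per the authors' deposited table. An adenylate kinase-like gene (Solyc02g093990) went from 11.4-fold to 1.09-fold per the authors' deposited table.

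At the ends of the whole column, 4 of the 15 highest and 6 of the 15 lowest features have a recurring fold. Apart from genes already named, the highest included O-methyltransferase 3 (Solyc10g008120), from 32.2-fold lower to 1.10-fold higher per the authors' deposited table, and a cold induced protein-like gene (Solyc06g066420) with a ratio of 36.3. An unknown protein (Solyc01g087180) crossed from 5.99-fold lower to 5.38-fold higher per the authors' deposited table. The lowest included annexin 11 (Solyc01g097550), of a family of calcium-dependent membrane proteins, which crossed from 5.13-fold higher to 10.9-fold lower per the authors' deposited table, a ratio of 0.0179. An inositol polyphosphate kinase (Solyc03g058950) went from 155-fold to 4.54-fold higher per the authors' deposited table, and metacaspase 7 (Solyc10g081300), of a protease family linked to cell death, had a ratio of 0.0358.

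The same ratio was computed for roots. Root ratios use other libraries, so the comparisons share no samples. Root folds were not screened for recurring values, so large root ratios are uncertain as well. Of the 4726 features kept in both tissues, 24.1% were higher in roots at 24 h than at 3 h and 22.9% were lower. Of the 725 features higher in callus, 303 were also higher in roots, which is 41.8% of the callus and 26.6% of the root list, and 97 were lower in roots. Of the 982 lower in callus, 410 were also lower in roots, which is 41.8% and 37.9% of the respective lists, and 113 were higher. Across these genes, which are not independent, the log2 ratios of both tissues gave a Pearson correlation of 0.34 and a rank correlation (Spearman's rho) of 0.38. No difference between tissues was tested.

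The list counts in roots stand beside 24.1% higher and 22.9% lower over all features kept in both tissues. In callus 15.3% of all kept features were higher and 21.0% lower. The anthocyanin structural list had 5 of 8 higher and 0 lower in roots too, but MYB-ATV (Solyc07g052490) had ratios of 0.427 in roots and 3.77 in callus. Of the photosynthesis list all 53 members were higher in roots, against 40 in callus, with a median log2 ratio of 2.96 against 1.81 in callus. Antenna gene Solyc03g115900 had ratios of 139 in roots and 3.76 in callus. Abscisic acid genes had 12 of 15 lower in roots and 6 of 15 in callus. Jasmonate and wound genes had 15 of 30 lower in roots and 10 of 30 in callus, and late embryogenesis genes 8 of 9 and 5 of 10. Shikimate genes had 6 of 10 lower and 0 higher in roots. Dehydrin Solyc04g082200, a protectant of drying cells, had ratios of 0.0438 in roots and 0.243 in callus.

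The counts for cell cycle, histone and heat shock genes differed between the tissues, untested. Over all features kept in both tissues, 24.1% were higher and 22.9% lower in roots. In callus 15.3% of all kept features were higher and 21.0% lower. Of the 104 cell cycle genes 49 were higher and 3 lower in roots, where callus had 2 and 14, or 7 and 7 after centring. Of the 29 histone genes 13 were higher and 0 lower in roots, where callus had 0 and 6. Heat shock genes had 31 of 52 lower and 6 higher in roots, where callus had 7 and 18, and all 16 small heat shock genes that passed the limit in roots were lower. The heat shock gene Solyc03g117630 had ratios of 5.10 in callus and 0.0787 in roots, and Solyc11g020330 of 14.9 and 0.232. WRKY factors had 3 of 23 lower and 2 higher in roots against 10 and 2 in callus. Pectin genes had 9 of 45 lower and 10 higher in roots, close to the root shares of all features.

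Single genes with a wide gap between tissues were alpha-galactosidase Solyc02g086530, which cuts galactose from wall and storage sugars, with ratios of 4.30 in callus and 0.00169 in roots, and the ethylene response factor Solyc02g090770, with 3.23 and 0.0111. The alpha-galactosidase has a recurring callus fold. In the other direction the antenna gene Solyc02g071010 had 0.0725 in callus and 70.3 in roots, peroxidase Solyc01g006300 had 0.191 and 79.8, and the pectate lyase Solyc05g014000 had 0.0129 and 5.18. The first and second of these have a recurring callus fold, and the root folds of the genes named here were not screened for recurring values. Cytochrome P450 gene Solyc03g019870 had 0.0745 and 19.9.

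**Figure D5:**
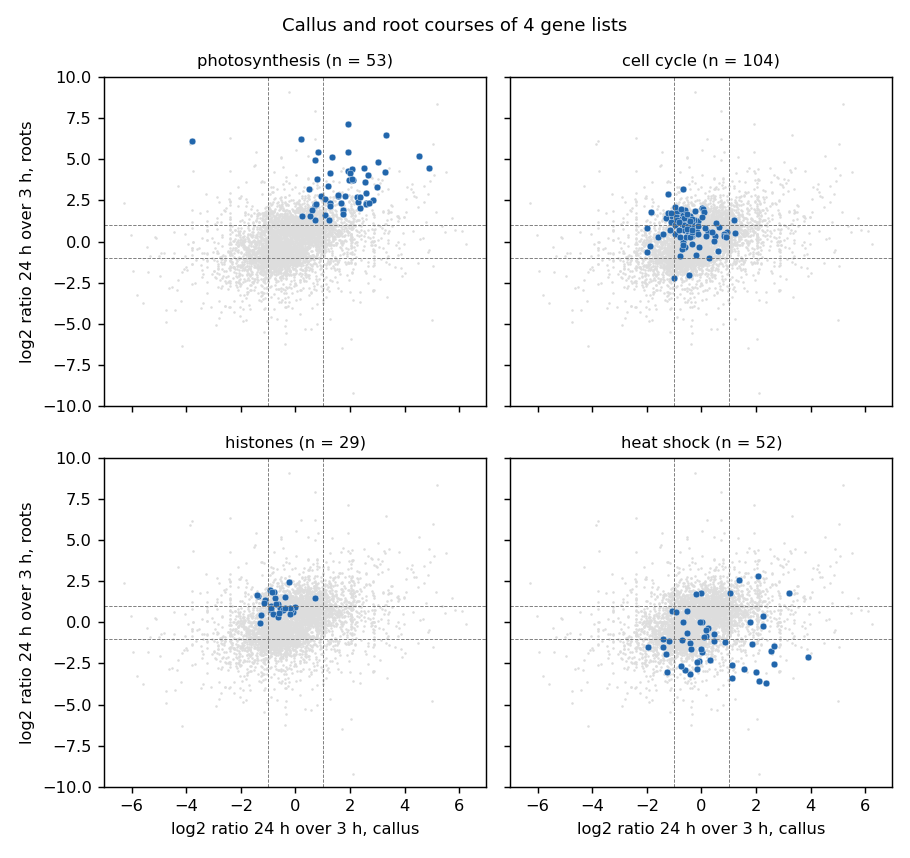
Log2 ratio of the folds at 24 h over 3 h in callus (x axis) and roots (y axis) for the members of 4 gene lists (blue) over all features kept in callus (grey), with dashed lines at a 2-fold difference. Photosynthesis genes lie mostly at the upper right, cell cycle and histone genes lie above and left of the centre, and many heat shock genes lie under the lower dashed line.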

How the data were processed

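Stranded mRNA libraries of 18 samples in 6 groups of 3 were sequenced paired-end, per the labels' protocols. The submitters' processing notes list CASAVA 1.8.1. For the aligner, the genome build and the counting, nothing is given in the sources used here. Per the file headers, the authors made with CLC bio software for each of 4 comparisons a signed fold (treated as a score), a linear ratio holding that value, and its log10. The 2 deposited files hold the same signed folds, with a largest difference of 0. The reference of each fold is not named in the headers and was read as uninduced samples of the same tissue.

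The callus ratio at 24 h was divided by that at 3 h (pandas 2.3.3 and numpy 2.4.6 under Python 3.11.15), correlated with scipy 1.17.1 and drawn with matplotlib 3.10.9. A check of the calls on simulated ratios had an outcome fixed by its settings, so it says nothing about these data. The planned count, limma and adjusted-p tests need values per library or p-values and could not be run. The members and the 45 gene lists, made from identifiers or description words, were chosen with earlier results of these data known. The late embryogenesis list and some exclusions were added after values were seen. Named genes are the 15 highest and lowest, the anthocyanin lists, up to 4 members with the largest ratios per list of at least 5, 6 of each crossing class and 5 of each opposite tissue course. Others named were chosen after their values were seen. RefSeq identifiers matched 0 features, and no sequences or positions are given.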

Additional observations from a re-analysis of the deposited data

How the results depend on the processing

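The features higher and lower at 24 h numbered 729 and 998. With a 4-fold limit they were 298 and 294, with a 1.5-fold limit 1137 and 1701, and without any exclusion 794 and 1046. Centring gave 956 and 706, only features at least 2-fold from uninduced callus 667 and 932, and ratios rebuilt from the signed folds 729 and 998. Without recurring folds, an alternative chosen after the data were seen, they were 568 and 873. Of the 45 lists the majority direction reversed in 7 with the 4-fold limit, 9 with centring, 3 without recurring folds and 0 with no exclusion. A further 9, 1, 1 and 2 lists, in the same order, lost their majority to equal counts, among them WRKY factors, histones and shikimate genes at 4-fold. Lists with equal counts gained a majority in 3, 4, 1 and 2 cases. The reversals include phenylpropanoid entry, glutathione transferases, glycosyltransferases, cytochrome P450 and receptor kinases under centring. The lists of photosynthesis, anthocyanin genes, pectin, jasmonate, abscisic acid, calcium and late embryogenesis kept their direction under these 4 settings. No paired analysis was possible because the table holds no values per library, and for the same reason leaving out single replicates, another count tool and any interval could not be run. Depth is unknown, so what it limits cannot be stated.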
